A study of Mus musculus with 11 samples.

Results

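Hepatokines are proteins that the liver secretes into the blood and that act on other tissues or back on the liver itself. The transcripts of 10 of them were followed in isolated mouse hepatocytes: *Fgf21*, *Gdf15*, *Inhbe*, *Angptl4*, *Angptl6*, *Angptl8*, *Igf1*, *Igfbp1*, *Igfbp2* and *Lect2*. The genes were chosen by name, as members of this class, from the 54232 gene identifiers of the count files. The rule used no expression value, but the genes were picked with earlier results of these data known. All 10 were among the 13303 genes that passed a filter on low counts and were tested.

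The study asked how loss of XBP1 in the liver alters hepatocytes under a diet that produces steatohepatitis. Adult male C57BL/6 mice were either liver-specific knockouts (*Xbp1* LKO), in which Cre recombinase driven by the albumin promoter removes exon 2 of the floxed gene, or *Xbp1* fl/fl controls, which carry the floxed alleles. Standard chow and plain water were given to one set of mice, and the other set had for up to 6 weeks the high fat and sugar diet (HFS), that is, Western pellets with fructose and glucose in the drinking water. Hepatocytes were purified by density centrifugation and sequenced in 11 libraries: 3 from fl/fl mice on chow, 2 from LKO mice on chow, 3 from fl/fl mice on the HFS diet and 3 from LKO mice on the HFS diet. On chow a library held the cells of 1 mouse, whereas under HFS feeding the cells of 2 mice were combined for every library, so that the spread within the HFS groups is a spread between pools.

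XBP1 is a transcription factor of the unfolded protein response, the program with which a cell meets an overload of unfolded protein in the endoplasmic reticulum. The sensor IRE1 splices its messenger RNA to give the active form, while a parallel sensor, PERK, acts through the transcription factors ATF4 and CHOP, whose targets in the liver include *Fgf21*, *Gdf15* and several amino acid genes. Other hepatokines answer to other signals: fatty acids and PPARA act on *Fgf21* and *Angptl4*, insulin raises *Angptl8* and lowers *Igfbp1*, and growth hormone drives *Igf1*.

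Total counts per library lay between 19191032 and 23888401. *Xbp1*, counted over the whole gene and therefore also from transcripts that lack exon 2, stood at 194 to 221 CPM, the count scaled to the size of the library, in fl/fl and at 95.7 and 128 CPM in LKO hepatocytes on chow, and at 242 to 301 against 97.3 to 135 CPM on the HFS diet, so the labels and this gene went the same way in all 11 libraries. All 20 hepatocyte markers were present in every group. Their summed level was lower in LKO libraries, at 69687 to 120840 CPM, than in fl/fl libraries, at 156308 to 206726 CPM. Markers of other cells were scarce in comparison, with sums of 23.2 to 111 CPM for 16 macrophage genes and 34.2 to 191 CPM for 14 endothelial genes, and the macrophage sum was 63.1 to 111 CPM in LKO against 45.7 to 63.7 CPM in fl/fl hepatocytes on the HFS diet. On chow the endothelial sum was lower in LKO, at 34.2 to 46.3 against 59.8 to 142 CPM, as was that of 13 stellate genes, at 13.7 to 16.3 against 18.6 to 62.9 CPM, and the macrophage sum, at 27.3 to 40.1 against 23.2 to 99.5 CPM, overlapped. LKO library 2 on chow stood apart: albumin made up 1.67% of its counts, against 3.72% in the other LKO library on chow and 8.06% to 10.9% in the fl/fl libraries on chow. Of 12 early response genes that cell isolation can induce, 1 rose in LKO hepatocytes on chow, as did 1.73% of all genes. It was *Myc*, chosen for mention after its values were seen (log2 fold change 3.02, edgeR adjusted p = 0.049), and it did not pass without LKO library 2. Under HFS feeding 0 passed in edgeR (4.08% of all genes), 1 stood at an unadjusted p under 0.05 (17.5%), and DESeq2 called 1. Many of the results on chow are therefore given both with LKO library 2 and without it. The part of cell composition or of isolation in any result was not tested. A lower share of one cell type and less RNA per cell cannot be told apart in bulk libraries.

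The 250 bases before the transcription start of the members were read for a response element of the C/EBP and ATF families, TTGCATCA or its reverse complement TGATGCAA, because ATF4 and CHOP bind such elements. RefSeq promoters of build GRCm38.p6 were found for 9 of the 10 genes, all but *Angptl4*. The letters occurred in 3 of these 9, and in 0.791% of the 32851 promoters of the table. They are shown as windows of 30 bases, 5′ to 3′ on the strand of the gene, with the match in capitals.

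Fgf21, chr7:45615611-45615640, minus strand: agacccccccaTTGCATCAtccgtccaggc
Inhbe, chr10:127352011-127352040, minus strand: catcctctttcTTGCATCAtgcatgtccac
Angptl8, chr9:21835369-21835398, plus strand: agccatcagtcTGATGCAAtggctgagcct

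The match lay 139 to 132 bases before the start of *Fgf21*, 181 to 174 bases before that of *Inhbe* and, as the reverse complement, 130 to 123 bases before that of *Angptl8*. In GENCODE M21, the annotation used here for names, positions and lengths, the first exon of *Inhbe* begins further upstream and covers its match. Of 25 genes of the ATF4 and CHOP stress response with a promoter in the table, 5 held the same letters: *Atf3*, *Chac1*, *Nupr1*, *Slc7a11* and *Vldlr*. The core of the unfolded protein response element (TGACGTG, in 1.65% of all promoters), a PPAR direct repeat of AGGTCA spaced by 1 base (0.0335%), a FOXO element (GTAAACA, 3.17%), a STAT element (TTCNNNGAA, 7.02%) and the ER stress element (0.113%) were searched on both strands in the same windows and occurred in 0 of the 9 members. A match is a description of these letters and not evidence of binding. The whole stretches before the starts of *Fgf21* and *Angptl8*, whose transcripts differed most among the LKO libraries on the HFS diet of the genes with a match, are given for context.

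Fgf21, chr7:45615491-45615740, minus strand: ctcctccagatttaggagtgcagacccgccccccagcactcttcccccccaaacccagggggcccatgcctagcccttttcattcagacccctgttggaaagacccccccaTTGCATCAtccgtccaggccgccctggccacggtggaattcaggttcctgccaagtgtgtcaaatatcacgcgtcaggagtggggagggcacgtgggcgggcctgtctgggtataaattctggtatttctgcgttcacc
Angptl8, chr9:21835260-21835509, plus strand: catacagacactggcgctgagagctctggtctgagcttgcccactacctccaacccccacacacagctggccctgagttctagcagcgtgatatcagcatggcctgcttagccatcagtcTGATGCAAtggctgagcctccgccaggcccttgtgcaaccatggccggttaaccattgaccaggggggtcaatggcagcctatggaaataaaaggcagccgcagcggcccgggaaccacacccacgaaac

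Compared per kilobase of the longest annotated transcript, the members spanned more than 2 orders of magnitude on a linear scale. In fl/fl hepatocytes on chow the highest was *Igfbp2*, at 349 to 488 CPM per kb, followed by *Lect2* at 126 to 151, and the ranges of neither overlapped that of the next gene. *Angptl4*, *Igf1* and *Igfbp1* followed with means of 89.5, 86.4 and 61.8 CPM per kb and overlapping ranges, then *Angptl8* at 33.6, *Inhbe* at 13.3 and *Gdf15* at 10.4. The lowest were *Fgf21* at 1.61 and *Angptl6* at 1.25 CPM per kb, which overlapped each other. The stress hormone *Fgf21* was thus near the limit of what was counted, with 11, 16 and 62 reads in the 3 libraries.

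In LKO hepatocytes on the HFS diet the order at the top was different, with *Lect2* at 257 to 350 CPM per kb above *Igfbp2* at 94.2 to 226, and their ranges did not overlap. In LKO hepatocytes on chow the means were 218 for *Igfbp2* and 205 CPM per kb for *Lect2*, with overlapping ranges. The per-length level of *Inhbe* is uncertain, since its only transcript in the annotation is 5319 bases long and extends beyond the RefSeq gene. Lengths of merged exons placed the same 2 genes at the top of every group.

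**Figure D1:**
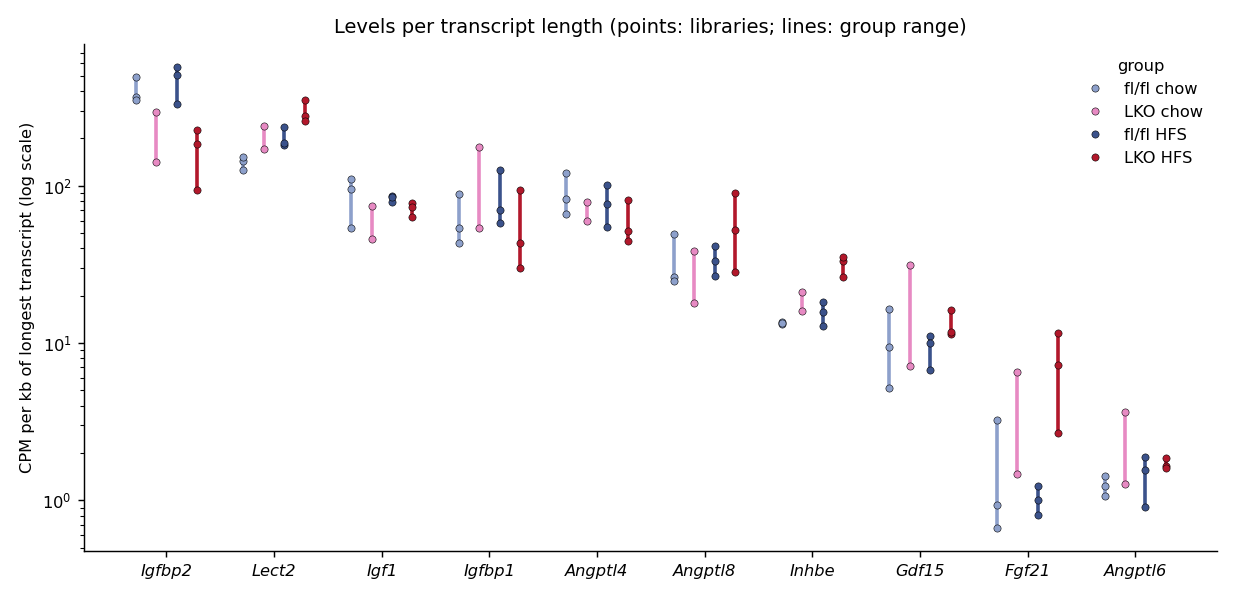
Level of each hepatokine transcript per kilobase of its longest transcript, in CPM per kb on a log scale, with 1 point per library and a line from the lowest to the highest library of each group. *Igfbp2* headed both fl/fl groups (348.6 to 487.6 on chow) and *Lect2* headed the LKO group on the HFS diet (256.8 to 349.9), while *Fgf21* and *Angptl6* were lowest in every group.

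Each gene was compared between groups with edgeR's quasi-likelihood test, and p-values were adjusted over all 13303 genes by Benjamini-Hochberg, with a threshold of 0.05. *Inhbe* rose and *Igfbp2* fell in LKO hepatocytes under HFS feeding, and no other of the 10 members passed in any comparison. For LKO against fl/fl on chow 0 of the 10 passed, where 4.75% of all tested genes did, and 4 had an unadjusted p under 0.05 (19.3% of all genes). Under HFS feeding 2 of 10 passed, where 4.08% of all genes did: 1 was higher (1.92% of all genes) and 1 lower (2.16%), and again 4 had an unadjusted p under 0.05 (17.5%). Without LKO library 3 on the HFS diet 1 of 10 passed, in a fit that called 285 of all genes, against 543 with every library. Without fl/fl library 3 on chow 3 of 10 passed under HFS feeding, in a fit that called 643 of all genes.

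The scaling between libraries bears on these counts. With library totals in place of TMM factors the median log2 difference of all genes moved to 0.33 on chow and 0.27 under HFS feeding, and the calls over all genes went from 230 higher and 402 lower to 2685 and 315 on chow, and from 256 and 287 to 1288 and 195 under HFS feeding. Among the members *Inhbe*, *Angptl6* and *Lect2* then passed on chow and *Fgf21* and *Lect2* were added under HFS feeding, each higher in LKO, and *Igfbp2* still fell (log2 fold change -1.23, edgeR adjusted p = 0.0326).

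The diet comparisons gave no edgeR call among the members. They set libraries of 1 mouse against pools of 2 mice, so diet and pooling cannot be told apart in them. For the HFS diet against chow, 0 of 10 passed in fl/fl hepatocytes, where 0.428% of all genes did, and 0 of 10 in LKO hepatocytes, where 0.0601% did. At an unadjusted p under 0.05 stood 1 member in fl/fl (8.95% of all genes) and 2 in LKO hepatocytes (12.7%), and DESeq2, another count test, called 0 and 1 members. No gene passed the genotype by diet test in edgeR (0.0% of 13303). Of all genes 816, or 6.13%, and 1 member had an unadjusted p under 0.05 in it, and DESeq2 called 31 genes and 0 members.

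Groups did not overlap for 3 members between the genotypes on chow, 2 higher and 1 lower in LKO, in a comparison of 3 with 2 libraries. Over all genes the share was 31.3%, made up of 15.4% higher and 15.9% lower. Under HFS feeding they did not overlap for 6 members, against 26.1% of all genes. Of these, 4 were higher in LKO (13.6% of all genes) and 2 lower (12.5%). In the diet comparisons this held for 1 member in fl/fl hepatocytes (13.7% of all genes, 6.33% in the same direction, higher on the HFS diet) and for 2 in LKO hepatocytes (31.1%, 16.7% higher). The members' median log2 difference was 0.51 on chow and 0.37 under HFS feeding between genotypes, and 0.11 and 0.01 between diets, while the median of all genes was within 0.01 of 0 in each.

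*Fgf21* (chr7:45613886-45615490, GRCm38, minus strand), *Gdf15* (chr8:70629393-70632456, minus strand) and *Inhbe* (chr10:127348857-127354411, minus strand) are the members most often tied to cellular stress. FGF21 acts on adipose tissue and brain and promotes fatty acid oxidation, GDF15 reduces food intake through a hindbrain receptor, and *Inhbe* encodes the subunit of activin E, a TGF-beta family ligand.

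*Inhbe* on the HFS diet was the clearest difference between the genotypes among the 10 genes. Its level was 97.6, 68.5 and 83.4 CPM in fl/fl libraries 1, 2 and 3, and 139, 176 and 187 CPM in the LKO libraries. The lowest LKO library lay above the highest fl/fl library. *Inhbe* rose 2.01-fold in LKO hepatocytes (log2 fold change 1.01 ± 0.16 SE, edgeR quasi-likelihood test with Benjamini-Hochberg adjustment over all genes, adjusted p = 0.00631), and it passed the threshold of 0.05 with any single library left out, with log2 fold changes of 0.89 to 1.14.

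On chow, *Inhbe* lay at 72.2, 69.9 and 70.9 CPM in fl/fl hepatocytes and at 84.6 and 113 CPM in LKO hepatocytes. The groups did not overlap, but the log2 difference of 0.47 ± 0.18 did not pass the test (edgeR, adjusted p = 0.16), and without LKO library 2 it was 0.25. Between the diets, *Inhbe* was higher on the HFS diet in LKO hepatocytes in every library (log2 difference 0.77 ± 0.18, edgeR adjusted p = 0.178), and in fl/fl hepatocytes the diets overlapped (0.23 ± 0.16, adjusted p = 0.767). The test of whether the genotype difference itself depended on diet gave a log2 value of 0.54 ± 0.24 for *Inhbe* (edgeR, unadjusted p = 0.0455, adjusted p = 0.798), so a dependence was not shown.

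*Inhbc*, which encodes the activin C subunit, lies upstream of *Inhbe* on the same strand, and 1910 bases separate its end from the start of *Inhbe*. It also rose in LKO hepatocytes on the HFS diet. Its level was 68.5 to 70.9 CPM in fl/fl and 96.7 to 115 CPM in LKO libraries (log2 fold change 0.60, edgeR adjusted p = 0.0177). On chow its log2 difference was 0.22 (adjusted p = 0.392). The antisense gene *Gm47200* that overlaps *Inhbe* had at most 0.153 CPM in any library.

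For *Fgf21* the difference on the HFS diet was larger and less certain. Its level was 0.953, 0.764 and 1.18 CPM in fl/fl libraries, from 20, 15 and 24 reads, and 6.92, 2.57 and 11.04 CPM in LKO libraries, from 170, 69 and 288 reads. Every LKO library was above every fl/fl library, and LKO library 3 was the highest of all 11. The log2 difference was 2.82 ± 0.71, a ratio of 7.05, and it narrowly missed the threshold (edgeR, adjusted p = 0.0511). It passed when only these 2 groups were fitted (adjusted p = 0.0206), under DESeq2 (adjusted p = 5.67e-04) and without LKO library 2 on chow (edgeR, adjusted p = 0.032), and it did not pass without LKO library 3 on the HFS diet (log2 2.29, edgeR adjusted p = 0.171).

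On chow, *Fgf21* depended on 1 library in each genotype. The fl/fl libraries had 0.883, 0.636 and 3.09 CPM and the LKO libraries 1.41 and 6.20 CPM. The groups overlapped, the log2 difference was 1.28 ± 0.75 (edgeR, adjusted p = 0.388), and without LKO library 2 it was -0.15. Neither diet comparison passed the test, with log2 differences of -0.69 ± 0.75 in fl/fl and 0.85 ± 0.72 in LKO hepatocytes (edgeR, adjusted p = 0.873 and 0.659).

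*Gdf15* was 17.0, 10.4 and 15.5 CPM in fl/fl and 17.6, 18.3 and 25.0 CPM in LKO libraries on the HFS diet, without overlap but with a gap smaller than the spread (log2 0.51 ± 0.49, edgeR adjusted p = 0.671). On chow it was 8.05, 14.6 and 25.6 CPM in fl/fl and 10.96 and 48.5 CPM in LKO libraries. The highest value again came from LKO library 2, and the log2 difference of 0.88 ± 0.53 (edgeR, adjusted p = 0.404) was -0.56 without it.

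**Figure D2:**
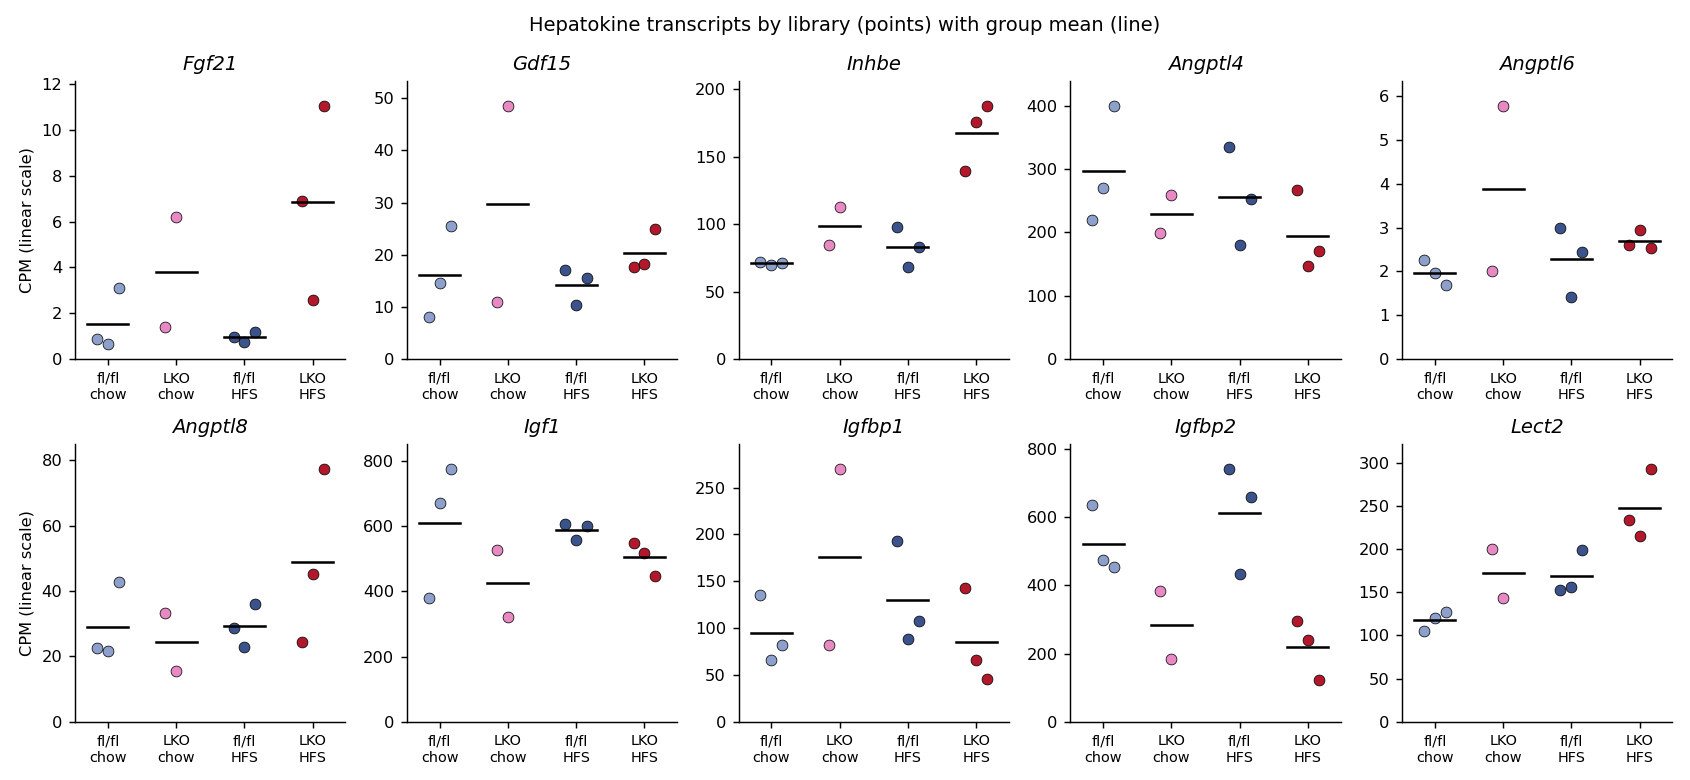
Level of each hepatokine transcript in CPM (linear scale from 0) in the 11 libraries, with 1 point per library, placed from left to right by library number, and a line at the group mean. LKO libraries on the HFS diet lie above the fl/fl libraries for *Inhbe* (139 to 187.3 against 68.5 to 97.6) and below them for *Igfbp2* (123 to 296 against 433.9 to 742), and the second LKO library on chow holds the highest *Gdf15*, *Angptl6* and *Igfbp1* of all.

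The other genes of the ATF4 and CHOP response give the setting of these 3 transcripts. Of 24 tested genes of that response, 8 rose and 0 fell in LKO hepatocytes on chow (1.73% and 3.02% of all genes), with a median log2 difference of 0.79 against 0.00 over all genes. On the HFS diet 6 rose and 0 fell (1.92% and 2.16% of all genes), with a median of 0.77 against 0.01. The stress regulator *Nupr1* had the largest changes: 0.221 to 0.349 against 10.5 to 47.3 CPM on chow (log2 6.62, edgeR adjusted p = 0.00449) and 0.143 to 0.196 against 3.79 to 21.4 CPM on the HFS diet (5.88, adjusted p = 0.00785). *Atf3*, a transcription factor induced by ATF4, rose by a log2 value of 4.80 on chow and 3.09 on the HFS diet (edgeR, adjusted p = 0.00519 and 0.0304). *Psat1*, an enzyme of serine synthesis, rose by 3.83 and 3.58 (adjusted p = 0.00742 and 0.0114).

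These counts depended on single libraries and on how many genes each fit called. Without LKO library 3 the HFS count was 2, in a fit that called 285 of all genes, against 543 with every library. The chow count was also lower without LKO library 2, a fit that leaves 1 LKO library there and called fewer of all genes. Under HFS feeding that fit called more of all genes, and the HFS count was higher in it. *Atf4* itself differed by log2 values of 0.14 and 0.18 (edgeR, adjusted p = 0.544 and 0.399). *Ddit3*, which encodes CHOP, was 4.52, 5.90 and 6.67 CPM in fl/fl and 23.6 and 132 CPM in LKO libraries on chow, and 5.10, 2.95 and 4.996 against 15.8, 13.5 and 44.5 CPM on the HFS diet. All LKO libraries lay above all fl/fl libraries of the same diet, and *Ddit3* rose on both (log2 3.77 ± 0.66 and 2.50 ± 0.62, edgeR adjusted p = 0.00977 and 0.0481). The chow call was lost without LKO library 2 (edgeR, adjusted p = 0.125), and the HFS call was lost in 8 of the 11 fits that left out 1 library, with edgeR adjusted p of 0.00997 to 0.168 over the 11. It was kept without LKO library 1 on the HFS diet and without either LKO library on chow.

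PPARA is another known input to *Fgf21*. Of 23 tested targets of PPARA, 1 rose on chow, where 1.73% of all genes did, and 2 rose on the HFS diet, where 1.92% did, and 0 fell on either (3.02% and 2.16% of all genes). At an unadjusted edgeR p under 0.05 stood 3 on chow (19.3% of all genes) and 9 on the HFS diet (17.5%). The list medians were 0.03 and 0.27, against 0.00 and 0.01 over all genes. *Acot2*, a mitochondrial acyl-CoA thioesterase, rose on both diets (log2 2.10 and 1.41, edgeR adjusted p = 0.0108 and 0.046), and *Cyp4a31*, a fatty acid hydroxylase, rose on the HFS diet (1.68, adjusted p = 0.0138). *Cpt1a*, the gate of mitochondrial fatty acid import, differed by -0.02 and -0.23 (adjusted p = 0.964 and 0.421). Without LKO library 3 the HFS count was 0, in a fit that called 285 of all genes, against 543 with every library. The chow count was also lower without LKO library 2, where fewer of all genes were called. The HFS count was higher without LKO library 2 on chow, in a fit that called more of all genes under HFS feeding.

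Of the receptors, *Klb*, the co-receptor that FGF21 requires, was present at 40.1 to 64.8 CPM in all libraries, with log2 genotype differences of -0.20 and 0.00 (edgeR, adjusted p = 0.548 and 0.994). *Gfral*, the receptor of GDF15, had 0 reads in every library. *Fgfr2* fell in LKO hepatocytes on both diets, from 20.2 to 36.9 to 0.961 to 1.92 CPM on chow (log2 -4.34, edgeR adjusted p = 0.00155) and from 18.2 to 32.8 to 3.98 to 8.96 CPM on the HFS diet (-2.06, adjusted p = 0.00757). Of 5 tested receptor genes it was the only one that passed the test in either genotype comparison, where 3.02% of all genes fell on chow and 2.16% on the HFS diet.

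The angiopoietin-like proteins *Angptl4* (chr17:33773750-33781830, minus strand) and *Angptl8* (chr9:21835510-21837347, plus strand) restrain lipoprotein lipase, the enzyme that frees fatty acids from circulating triglyceride, the first mainly in fasting and the second after feeding. *Angptl6* (chr9:20873808-20879727, minus strand) encodes a relative that has been linked to energy expenditure. None of the 3 passed the test in any comparison.

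*Angptl4* was 219, 271 and 399 CPM in fl/fl and 198 and 259 CPM in LKO libraries on chow, and 334, 180 and 252 against 266, 147 and 170 CPM on the HFS diet. The groups overlapped on both diets, and the log2 differences between genotypes were -0.37 ± 0.32 and -0.39 ± 0.29 (edgeR, adjusted p = 0.587 and 0.559). With these errors the normal 95% intervals ran from -1.01 to 0.26 and from -0.96 to 0.17.

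*Angptl8* was 22.6, 21.6 and 42.9 CPM in fl/fl and 33.4 and 15.6 CPM in LKO libraries on chow. On the HFS diet it was 28.6, 23.0 and 35.95 CPM in fl/fl and 24.5, 45.2 and 77.4 CPM in LKO libraries. LKO library 1 lay among the fl/fl values and the other 2 above them, so the groups overlapped (log2 0.75 ± 0.41, edgeR adjusted p = 0.395). Between the diets in LKO hepatocytes the log2 difference was 1.00 ± 0.47 (adjusted p = 0.411). *Angptl8* lies within *Dock6*, which runs on the opposite strand, had 8.39 to 18.7 CPM and was lower in LKO libraries on both diets by log2 values of -0.59 and -0.65 that did not pass the test (edgeR, adjusted p = 0.129 and 0.0675). Whether counting used strand is not given in the sources used here, and without strand the reads of such partners cannot be told apart.

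*Angptl6* was low throughout, at 1.69 to 2.26 CPM in fl/fl and 2.01 and 5.77 CPM in LKO libraries on chow, and at 1.43 to 3.00 against 2.53 to 2.94 CPM on the HFS diet. The value of 5.77, from 132 reads in LKO library 2, set the chow difference (log2 0.98 ± 0.41, edgeR adjusted p = 0.218), which was 0.02 without that library. Its end overlaps *A230050P20Rik* on the opposite strand, which had 23.0 to 70.5 CPM.

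Of 17 tested genes around lipoprotein lipase, 1 rose and 1 fell in LKO hepatocytes on chow (1.73% and 3.02% of all genes), and 0 rose and 3 fell on the HFS diet (1.92% and 2.16%). Without LKO library 3 the HFS count was 1, in a fit that called 285 of all genes, against 543 with every library. The chow count was also lower without LKO library 2, where fewer of all genes were called. The HFS count was higher without LKO library 2 on chow, in a fit that called more of all genes under HFS feeding. *Furin*, a protease that cleaves ANGPTL4 and lipoprotein lipase, fell on both (log2 -0.73 and -1.002, edgeR adjusted p = 0.0384 and 0.00582), as did the lipoprotein receptor *Lrp1* (-1.21, adjusted p = 0.014) and hepatic lipase, *Lipc* (-0.82, adjusted p = 0.0256), on the HFS diet. The lipoprotein receptor *Vldlr*, also counted in the ATF4 and CHOP list, rose on chow (3.19, edgeR adjusted p = 0.025). *Lpl* itself rose with the HFS diet in fl/fl hepatocytes, from 1.56 to 4.48 to 12.8 to 22.7 CPM (log2 2.38, edgeR adjusted p = 0.0494). In the same comparison 14 of 14 endothelial and 11 of 11 tested stellate markers were above 0, with median log2 differences of 0.79 and 0.53. Of 15 tested macrophage markers 9 were above 0. None of these markers passed the test, where 0.428% of all genes did. Of 10 T, B and NK cell markers 1 was tested, and it passed (log2 1.99, edgeR adjusted p = 0.0422). The sum of the 10 was 0.597 to 1.16 CPM on chow and 2.33 to 3.33 CPM on the HFS diet in fl/fl libraries. Of 4 tested cholangiocyte markers 2 were above 0, and 0 passed. A part of other cells in the *Lpl* value was not tested.

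*Igf1* (chr10:87858265-87937042, plus strand) encodes the growth factor through which growth hormone acts on the body. *Igfbp1* (chr11:7197782-7202546, plus strand) and *Igfbp2* (chr1:72824503-72852474, plus strand) encode binding proteins that hold IGF1 in the circulation and limit its action.

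*Igfbp2* was the member that fell. On the HFS diet it was 742, 434 and 659 CPM in fl/fl and 296, 241 and 123 CPM in LKO libraries, so the highest LKO library lay below the lowest fl/fl library. The log2 fold change was -1.48 ± 0.35, with fl/fl levels 2.78-fold higher (edgeR, adjusted p = 0.0386). The call was lost without fl/fl library 2 on chow (adjusted p = 0.0527) and, on the HFS diet, without fl/fl library 1 (0.129) or 3 (0.11) or LKO library 2 (0.121) or 3 (0.104), all by edgeR, with log2 fold changes of -1.75 to -1.19 over all fits that left out 1 library.

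On chow *Igfbp2* was 637, 476 and 456 CPM in fl/fl and 384 and 185 CPM in LKO libraries. The groups did not overlap, and the log2 difference of -0.88 ± 0.39 did not pass the test (edgeR, adjusted p = 0.246). Without LKO library 2 it was -0.45. The diets overlapped in both genotypes, and the genotype by diet test gave -0.60 ± 0.51 (adjusted p = 0.903). *Igfbp5*, next to it in the genome at 5457 bases, had 0.786 to 8.67 CPM and log2 genotype differences of -1.08 and -0.54 (edgeR, adjusted p = 0.575 and 0.798).

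*Igfbp1*, the insulin-suppressed binding protein, varied widely within groups. It was 136, 65.5 and 81.8 CPM in fl/fl and 81.6 and 270 CPM in LKO libraries on chow, and 193, 88.7 and 107 CPM in fl/fl and 143, 65.9 and 45.6 CPM in LKO libraries on the HFS diet. The groups overlapped on both diets. Its log2 genotype differences had opposite signs, 0.90 ± 0.55 on chow and -0.62 ± 0.50 on the HFS diet (edgeR, adjusted p = 0.417 and 0.605), and the test of that difference gave -1.51 ± 0.75 (adjusted p = 0.818). Without LKO library 2 on chow the chow value was -0.21.

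*Igf1* was 381, 672 and 776 CPM in fl/fl and 527 and 322 CPM in LKO libraries on chow. On the HFS diet it was 606, 558 and 600 CPM in fl/fl and 548, 518 and 448 CPM in LKO libraries. The HFS groups did not overlap, yet 558 and 548 CPM lay next to each other and the log2 difference was -0.22 ± 0.24 (edgeR, adjusted p = 0.725). On chow it was -0.52 ± 0.28 (adjusted p = 0.341).

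Around these 3 genes, 16 genes of growth hormone and IGF signalling were tested. On chow 1 rose and 1 fell (1.73% and 3.02% of all genes), and on the HFS diet 0 rose and 1 fell (1.92% and 2.16%), with list medians of -0.17 and -0.13. The chow count was lower without LKO library 2 on chow, a fit that called fewer of all genes there. Under HFS feeding that fit called more of all genes. The HFS count was higher in it, with *Stat5a* added (log2 difference 0.63). *Igf2r*, which clears IGF2 and carries lysosomal enzymes, fell on both diets, from 61.9 to 81.5 to 38.9 to 47.1 CPM on chow (log2 -0.67, edgeR adjusted p = 0.0225) and from 74.8 to 83.5 to 44.0 to 47.9 CPM on the HFS diet (-0.81, adjusted p = 0.00539). *Stat5a*, which relays growth hormone, rose on chow (0.85, adjusted p = 0.0327). *Ghr*, the growth hormone receptor, differed by -0.47 and -0.16 (adjusted p = 0.208 and 0.718). Of 14 tested genes under insulin and FOXO control, 0 passed the edgeR test in either genotype comparison (4.75% of all genes on chow and 4.08% under HFS feeding). At an unadjusted p under 0.05 stood 4 on chow (19.3% of all genes) and 3 under HFS feeding (17.5%), and DESeq2 called 1 and 0. With LKO library 2 on chow left out, edgeR called 1 of them under HFS feeding, *Pdk4*, which was higher in LKO (log2 2.13, adjusted p = 0.0413) and is named after its values were seen.

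*Lect2* (chr13:56542464-56548502, minus strand) encodes a hepatocyte-made chemotactic protein that binds the receptor MET and has been tied to insulin resistance in muscle. It was 105, 121 and 127 CPM in fl/fl and 200 and 143 CPM in LKO libraries on chow, and 153, 156 and 199 CPM in fl/fl and 234, 215 and 293 CPM in LKO libraries on the HFS diet. The groups did not overlap in either genotype comparison or in the diet comparison of fl/fl hepatocytes, and in LKO hepatocytes the lowest HFS library (215 CPM) lay above the highest chow library (200 CPM).

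The 4 log2 differences of *Lect2* were close to each other: 0.55 ± 0.19 and 0.55 ± 0.17 for LKO against fl/fl on chow and on the HFS diet, and 0.53 ± 0.17 and 0.52 ± 0.19 for the HFS diet against chow in fl/fl and LKO hepatocytes. None passed the test (edgeR, adjusted p = 0.128, 0.102, 0.336 and 0.297), although the second of them did under DESeq2 (adjusted p = 0.0407). The comparisons share libraries and are not independent of each other. The genotype by diet value was -0.0018 ± 0.25 (adjusted p = 0.999). *Met* differed by -0.26 and -0.32 between genotypes (edgeR, adjusted p = 0.497 and 0.375).

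**Figure D3:**
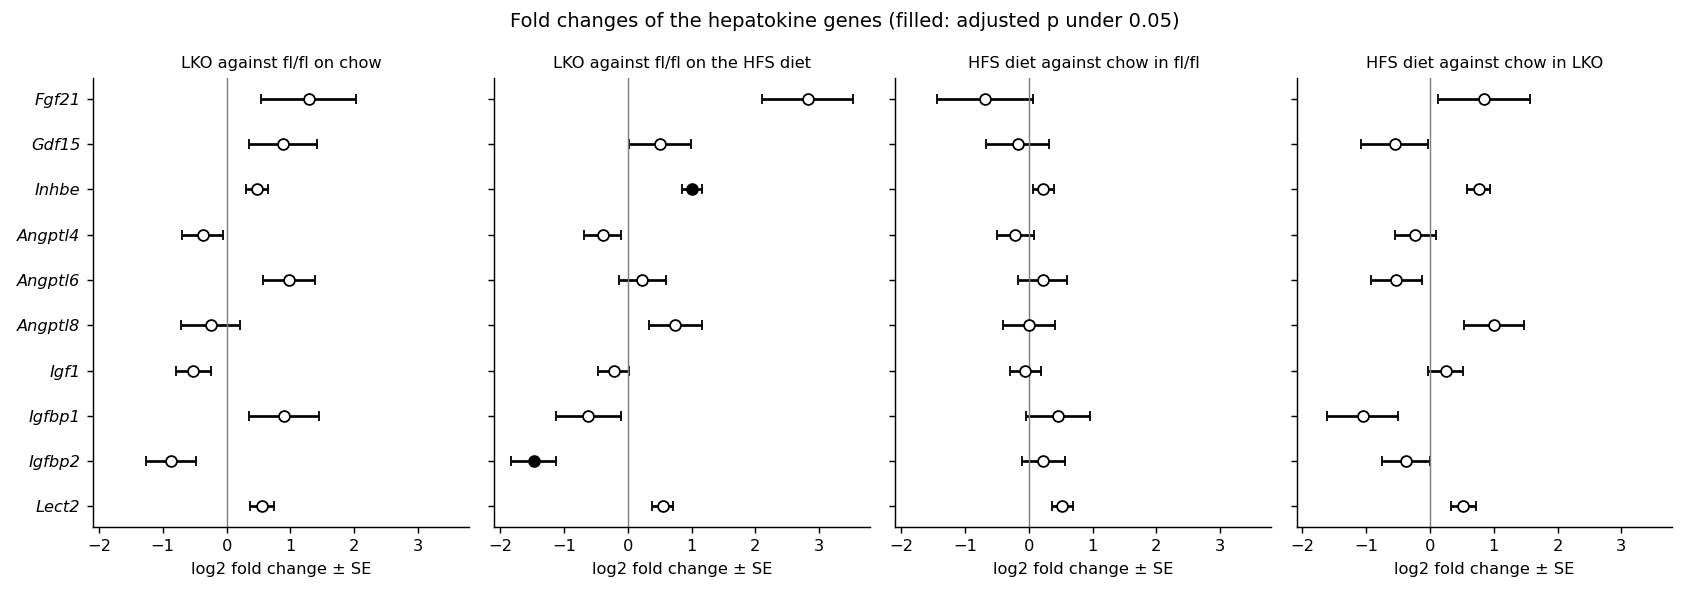
Log2 fold change of each hepatokine transcript with its standard error in the 4 comparisons, filled where the adjusted p was under 0.05. Only *Inhbe* (1.01) and *Igfbp2* (-1.48) are filled, both for LKO against fl/fl on the HFS diet, and *Fgf21* has the largest value of all (2.82) with a wide error of 0.71.

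Of 14 other tested hepatokine genes, 1 rose and 1 fell on chow (1.73% and 3.02% of all genes) and 0 rose and 1 fell on the HFS diet (1.92% and 2.16%). These were *Tsku*, which was 85.4 to 127 against 181 to 315 CPM on chow (log2 1.20, edgeR adjusted p = 0.0121), the selenium carrier *Selenop* (-0.70 on chow, adjusted p = 0.0436) and the fetuin *Fetub* (-0.94 on the HFS diet, adjusted p = 0.0306). Without LKO library 3 the HFS count was 0, in a fit that called 285 of all genes, against 543 with every library. The chow count was also lower without LKO library 2, where fewer of all genes were called. The HFS count was higher without LKO library 2 on chow, in a fit that called more of all genes under HFS feeding. *Ahsg* (fetuin-A) and the retinol carrier *Rbp4* differed by -0.12 to 0.24 in both genotype comparisons. Of 14 tested genes of activin signalling, 0 passed in edgeR on chow (4.75% of all genes). On chow 3 stood at an unadjusted p under 0.05 (19.3% of all genes), and DESeq2 called 1. On the HFS diet *Inhbc* rose and *Smad4* fell (-0.36, edgeR adjusted p = 0.032), as did 1.92% and 2.16% of all genes. Without LKO library 3 on the HFS diet *Inhbc* still passed and *Smad4* did not.

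**Figure D4:**
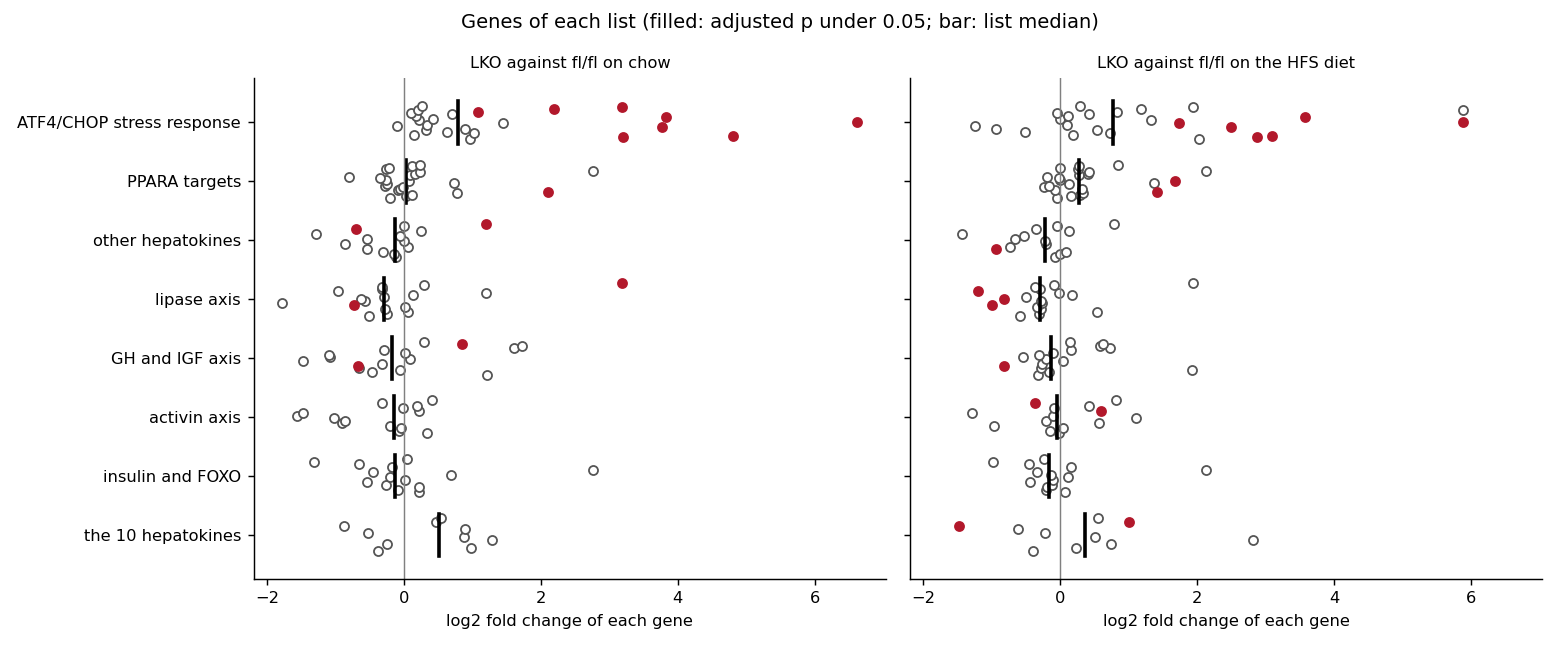
Log2 fold change of each tested gene, LKO against fl/fl on chow (left) and on the HFS diet (right), grouped by list, with filled points for an adjusted p under 0.05 and a bar at the list median. The ATF4 and CHOP response lies furthest to the right (medians 0.79 and 0.77), and the lipase, growth hormone and activin lists lie near or slightly left of 0.

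Across the 11 libraries several members moved with or against each other, given here as a description over libraries that share genotype, diet and depth. *Fgf21* ran with *Inhbe* (Pearson r of log2 CPM 0.76) and *Gdf15* (0.72) and against *Igfbp2* (-0.84). *Inhbe* ran with *Lect2* (0.78) and against *Igfbp2* (-0.77). These 5 values were 0.78, 0.70, -0.81, 0.82 and -0.80 over the 10 libraries without LKO library 2 on chow, while others rested on that library: *Igf1* with *Igfbp1* was -0.41 with it and -0.0010 without it, and *Gdf15* with *Angptl8* was 0.08 and 0.71.

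**Figure D5:**
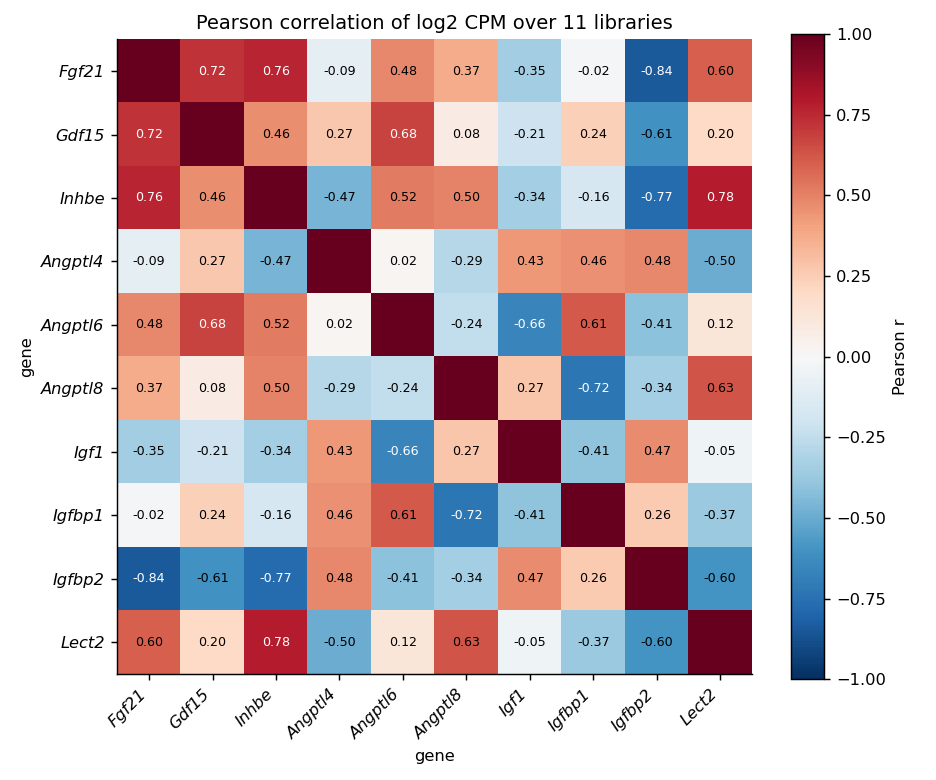
Pearson correlation of log2 CPM between each pair of the 10 hepatokine transcripts over the 11 libraries, from blue (-1) to red (1). *Fgf21*, *Inhbe* and *Lect2* correlate positively with each other (0.60 to 0.78) and negatively with *Igfbp2* (-0.84 to -0.60).

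Among 11130 genes with a mean of at least 1 CPM, those with the pattern most like *Igfbp2* were *Sema4g*, *Cps1*, the first enzyme of the urea cycle, and *Eif2ak1*, a kinase of the translation factor eIF2-alpha (r = 0.95 each). Nearest to *Fgf21* were *Lbhd1* (0.93), *Atp8b4* and *Ghitm* (0.91 each), nearest to *Gdf15* were *Hyls1* (0.96), *Arl4a* (0.92) and *Kat8* (0.89), and nearest to *Inhbe* were *Zfp706* (0.94), *Plekhg2* and *Tecpr2* (0.93 each). *Lect2* was most like *March2* (0.95), *Samd1* (0.94) and *Srd5a3* (0.93), and *Igf1* most like *Nampt*, *Ugt2a3* (0.95 each) and *Ces3a* (0.93). *Angptl4* was nearest to *Suds3* (0.92), *Canx* (0.91) and *Hypk* (0.90), *Igfbp1* to *Zfp592* (0.89), *Dus3l* (0.88) and *Plekhg3* (0.87), and *Angptl8* to *Etfdh*, *Esd* (0.88 each) and *Etfa* (0.87), of which *Etfdh* and *Etfa* serve electron transfer from fatty acid oxidation. *Angptl6* was nearest to *Atoh8* (0.89), *Nol12* and *Pard6a* (0.88 each), and its 3 values were 0.70 to 0.75 without LKO library 2 on chow. Without that library the values of *Gdf15* were 0.81 to 0.94, those of *Igfbp1* 0.80 to 0.86 and those of *Angptl8* 0.83 to 0.84. The values of *Inhbe* (0.93 to 0.96) and *Lect2* (0.95 each) did not fall without it.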

How the data were processed

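RNA from the isolated hepatocytes of 11 libraries was sequenced, and the authors deposited raw read counts per Ensembl gene for each library. The submitters' processing notes name cutadapt 1.13, STAR, HTSeq 0.6.1p1, DESeq2 and mm10, while the methods of the paper describe transcript quantification, so the route to the deposited counts is uncertain. The library kit is also described differently in these sources, and the strand setting is not given in the sources used here. Of the 54232 identifiers, 54165 were matched to GENCODE M21 (GRCm38), which gave names, positions and lengths.

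Groups were taken from the labels. Counts were fitted in R 4.3.3 with edgeR 4.0.16 (TMM normalization, filterByExpr with a minimum count of 10, 4 groups sharing one estimate of spread, quasi-likelihood test, Benjamini-Hochberg adjustment over 13303 genes, threshold 0.05). CPM used TMM-scaled totals, log2 CPM a prior count of 2, and correlations genes with a mean of at least 1 CPM. Alternatives were DESeq2 1.42.0, other scalings, filters and sample sets, replicate blocks and each library left out; counts over the gene lists without LKO library 2 on chow or LKO library 3 on the HFS diet, and correlations without the former, were added after seeing the data. The fit was tested on simulated data. No replicate pair was alike within sampling noise. The members and gene lists were chosen with earlier results of these data known. Named genes were the members, *Xbp1*, up to 3 genes of each list with the smallest p in a genotype comparison (in a diet comparison where any passed), the 3 genes most like each member, neighbours and overlapping genes, and cell markers; *Atf4*, *Ddit3*, *Cpt1a*, *Klb*, *Gfral*, *Ghr*, *Met*, *Ahsg*, *Rbp4*, *Tsku* and *Fetub* were added for their role, after their values were seen. 2 genes of the lists are not reported here and were left out of the list counts.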

Additional observations from a re-analysis of the deposited data

How the results depend on the processing

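The rise of *Inhbe* in LKO hepatocytes on the HFS diet passed the threshold in all alternatives run, and the fall of *Igfbp2* in all but 5 of those that left out 1 library, named above. The number of members called on chow was 0, against 3 with library totals as the scale and 5 with no filter on low counts. Under HFS feeding it was 2, against 4 with library totals, 4 with DESeq2 and 6 with no filter, and for the diet in LKO hepatocytes it was 0, against 1 with DESeq2 and 3 with no filter. For the interaction it was 0, against 2 with no filter. Leaving out 1 library gave 0 to 1 members on chow and 1 to 3 on the HFS diet. Over all genes, 632 were called on chow, against 3000 with library totals (2685 of them higher, against 230), 1115 with DESeq2, 1507 with no filter and 233 with only the groups compared, and 69 to 762 with 1 library left out, the lowest without LKO library 2. Under HFS feeding 543 were called, against 1483, 981 and 1438 with library totals, DESeq2 and no filter, and 184 to 662 with 1 left out. The diet changed 57 genes in fl/fl hepatocytes, against 175 with DESeq2 and 499 with no filter (6 to 59 with 1 left out), and 8 in LKO hepatocytes, against 208 with DESeq2, 722 with no filter and 0 with only the groups compared (0 to 36). The interaction gave 0 genes, against 31 with DESeq2 and 269 with no filter. Among the gene lists, library totals took the calls of the ATF4 and CHOP list from 8 to 16 on chow and from 6 to 12 under HFS feeding and those of PPARA targets from 1 to 5 and from 2 to 9, and DESeq2 took those around lipoprotein lipase from 2 to 5 and from 3 to 6. The cause of these shifts was not tested.

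Deviations of same-numbered libraries from their group means correlated at -0.20 to 0.23 over 15 pairs by the labels' numbers (median -0.05, 4 above 0.1). By the numbers in the deposited names they correlated at -0.20 to 0.25 (median -0.06, 4 above 0.1). Groups of so few libraries cannot decide whether the numbers pair the libraries. With the number as a block, *Fgf21* on the HFS diet passed (edgeR, adjusted p = 0.0495 by the labels' numbers and 0.0112 by the numbers in the deposited names), and the count of diet calls in LKO hepatocytes was 19 and 53.

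Signs turned for differences that had not passed the test, some of them large. *Angptl8* on chow was 0.0555 with library totals and 0.0924 with the labels' block, *Igf1* on the HFS diet 0.0365 with library totals, *Angptl8* for the diet in fl/fl hepatocytes -0.0016 with only the groups compared, and the interaction was 0.16 for *Angptl4* and 0.0268 for *Lect2* with the block by deposited names and 0.0049 for *Lect2* with a filter of 1 CPM. With 1 library left out, log2 differences ran on chow from -0.15 to 2.31 for *Fgf21*, -0.56 to 1.59 for *Gdf15*, -0.89 to 0.20 for *Angptl8* and -0.21 to 1.52 for *Igfbp1*, and on the HFS diet from -0.0177 to 0.47 for *Angptl6*. For the diet in fl/fl hepatocytes they ran from -1.05 to 0.34 for *Fgf21*, -0.49 to 0.34 for *Gdf15*, -0.46 to 0.0609 for *Angptl4*, -0.0231 to 0.47 for *Angptl6*, -0.17 to 0.40 for *Angptl8* and -0.30 to 0.16 for *Igf1*. For the diet in LKO hepatocytes they ran from -1.26 to 0.90 for *Gdf15*, -1.10 to 0.43 for *Angptl6*, -0.0536 to 0.64 for *Igf1*, -1.68 to 0.0624 for *Igfbp1* and -0.80 to 0.24 for *Igfbp2*. For the interaction they ran from -1.09 to 1.06 for *Gdf15*, -0.31 to 0.22 for *Angptl4*, -1.32 to 0.21 for *Angptl6*, -0.0069 to 0.70 for *Igf1*, -1.03 to 0.0153 for *Igfbp2* and -0.22 to 0.26 for *Lect2*. A chow fit without 1 LKO library leaves 1, which is assumed to vary like the other groups.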
